A study of Mus musculus with 9 samples.

Results

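The baseline transcriptome of the mouse kidney was described from the 3 saline libraries of a study of 9, each library made from the kidney of 1 mouse. The 3 were taken by their treatment label, and no measured value entered that choice. Of the other 6 libraries, 3 came from mice that received lipopolysaccharide (LPS), a bacterial endotoxin that provokes systemic inflammation. The last 3 came from mice treated with both LPS and thymosin β4 (LPS+Tβ4), a small actin-binding peptide. The labels give tissue and treatment and no strain, genotype, sex, age, dose, route or time, and they do not say whether whole kidneys or pieces were taken. Polyadenylated RNA was sequenced. Levels between genes are given as FPKM, a fragment count scaled to transcript length and to library size, since only a value per length can be set against that of another gene, and are means ± SD over the 3 saline libraries (n = 3) where an error is shown.

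The kidney filters plasma through capillary tufts lined by podocytes and then recovers most of the filtrate along the nephron. The proximal tubule takes back glucose, amino acids, phosphate and filtered protein and secretes organic ions. The thick ascending limb and the distal convoluted tubule reabsorb salt, and the collecting duct adjusts water and acid in its principal and intercalated cells. This work is paid for by mitochondrial respiration, and proximal tubule cells are among the cells richest in mitochondria.

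The saline libraries held 56.6, 58.9 and 59.5 M counts, against 52.95 to 62.02 M in the other 6. An FPKM of at least 1 in all 3 saline libraries was found for 11492 of 34310 genes, of which 10349 were protein-coding, out of 18348 protein-coding genes in the table. At an FPKM of 5 the number was 5735, at 100 it was 312 and at 1000 it was 28. Another 5320 genes drew no count from the saline kidneys. Among the 12433 genes with a mean saline FPKM of at least 1, the median coefficient of variation over the 3 mice was 12.5%, against 24.2% in the LPS and 15.3% in the LPS+Tβ4 libraries for the genes at that level there. Between the highest and the lowest saline mouse, 1083 of these genes (8.71%) differed more than 2-fold. The Y-linked genes Ddx3y and Eif2s3y had 11.7 to 13.5 FPKM in every saline library, and Xist, the RNA of the inactive X chromosome, at most 0.03.

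The labelled tissue was checked against 5 defining markers, all of which were measured in every saline library. Lrp2, which encodes the endocytic receptor megalin of the proximal tubule, had 94.7, 98.5 and 121 FPKM in saline 1, 2 and 3. Slc34a1, the apical sodium-phosphate cotransporter of the same segment, had 754, 689 and 894 FPKM. Both proximal tubule genes were lowest in saline 1 or 2 and highest in saline 3, within 1.3-fold. Umod, which encodes uromodulin of the thick ascending limb, had 496, 830 and 516 FPKM, and Slc12a3, the thiazide-sensitive cotransporter of the distal convoluted tubule, 77.0, 66.5 and 80.2 FPKM. Aqp2, the vasopressin-regulated water channel of principal cells, had 30.7, 139 and 39.0 FPKM, so that saline 2 stood far above the other two.

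The 3 saline libraries also differed in transcripts of neighbouring regions and tissues. Saline 1 was low in transcripts of the urothelium that lines the renal pelvis: Upk1a, which encodes a uroplakin of its surface plaques, had 0.18 FPKM in saline 1 against 11.7 and 12.4 in saline 2 and 3. The summed FPKM of 5 urothelial genes was 0.90, 38.5 and 42.8, and Krt5, a keratin of basal urothelial cells, was listed at 0 in saline 1. Fat transcripts were spread differently, with a summed FPKM of 6 genes of 2.87, 281 and 49.2. Ucp1, the uncoupling protein of brown fat, had 0.80, 90.3 and 10.3 FPKM, and Cfd, the adipocyte protease adipsin, 1.20, 92.1 and 23.8 FPKM. Saline 2 was thus the library with most fat transcripts and saline 1 the one with least. Smooth muscle genes were low in saline 1 too, with 20.1, 78.1 and 73.4 FPKM for Acta2, smooth muscle actin, and 5.21, 18.8 and 19.1 FPKM for Myh11, its myosin heavy chain.

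Liver transcripts went the other way. Alb, which encodes albumin, had 102 FPKM in saline 1 against 2.07 and 2.81 in saline 2 and 3, and Apoa1, the main protein of high-density lipoprotein, 20.2 against 0.65 and 0.68. Mup17 and Mup20, major urinary proteins made in liver, had 43.4 and 37.0 FPKM in saline 1 and were listed at 0 in both other saline libraries. Summed over 6 liver genes the FPKM was 234, 84.1 and 71.5. The exocrine pancreas genes Prss2, Ctrb1 and Pnlip drew no count from any of the 3, and 6 adrenal genes summed to 0.98, 1.20 and 1.24 FPKM. The part of these tissues in other differences between the saline libraries was not tested. The urothelial list varied within the treated groups as well, with sums of 1.33 to 34.8 FPKM in the LPS and 0.48 to 51.9 FPKM in the LPS+Tβ4 libraries. The liver sums there were 28.7 to 62.3 FPKM in the LPS and 34.1 to 65.3 FPKM in the LPS+Tβ4 libraries. No treated library came near the 234 of saline 1.

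**Figure D1:**
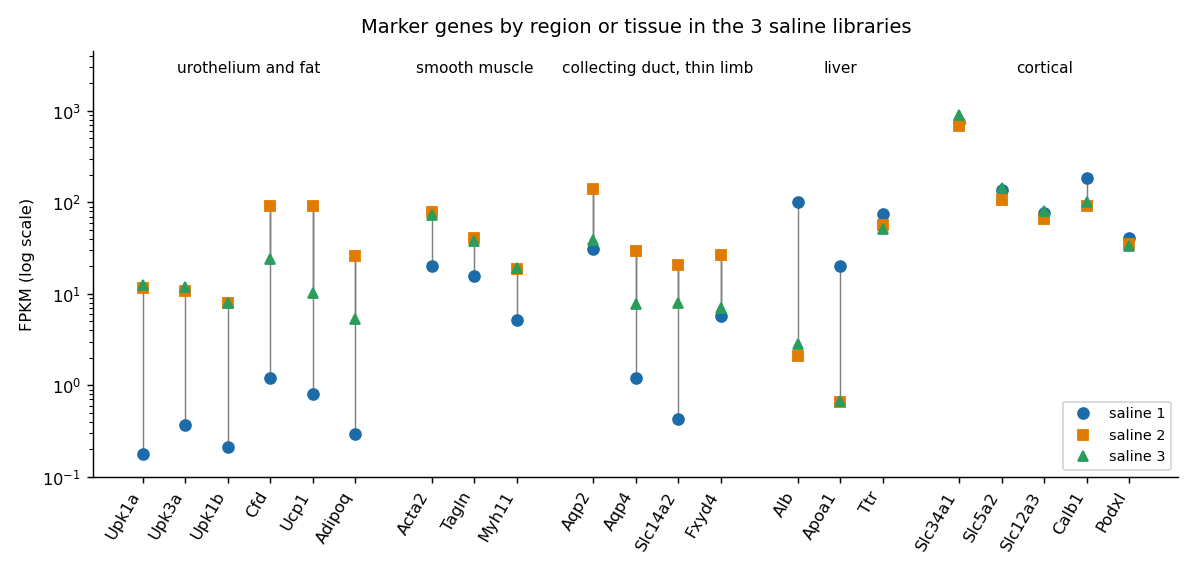
FPKM (log axis) of marker genes in saline 1 (circle), saline 2 (square) and saline 3 (triangle), grouped by region or tissue, with a line joining the lowest to the highest library. Upk1a spans 0.18 to 12.4 and Ucp1 0.80 to 90.3, while Slc12a3 stays between 66.5 and 80.2.

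Fat and liver genes were among those with the widest spread. A mean saline FPKM of at least 10 was reached by 3737 genes, of which predicted genes, clone names and pseudogenes were not ranked. The 12 others with the largest ratio of highest to lowest library were Commd1b, Mup17, Mup20, Cox8b, Sprr1a, Cidea, Aldh1a3, Ucp1, Adipoq, Cfd, Psca and Alb. Commd1b, Mup17, Mup20 and Cox8b, a cytochrome oxidase subunit of muscle and brown fat, were listed at 0 in at least 1 library. The ratio was 143 for Sprr1a, a cornified-envelope protein, 123 for Cidea, a lipid-droplet protein of brown fat, and 112 for Ucp1. It was 49.0 for Alb. In all 12 genes saline 1 was the library at one extreme: it was the highest for Mup17, Mup20 and Alb and the lowest for the other 9. At the other end, Slc1a1, the epithelial glutamate transporter, had 33.5, 33.6 and 33.6 FPKM, a ratio of 1.003. Mdh2, mitochondrial malate dehydrogenase, had a ratio of 1.004, and Ctsb, the lysosomal protease cathepsin B, 1.005 (these 3 genes were chosen after their values were seen). By library pair, 771 genes differed more than 2-fold between saline 1 and 2, 562 between 1 and 3 and 475 between 2 and 3.

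The most abundant RNA of all was mitochondrial. mt-Co1, which encodes subunit 1 of cytochrome oxidase (chrM:5328-6872, plus strand, GRCm38), had 24474, 21009 and 24074 FPKM, the highest level in the table. Genes on the mitochondrial chromosome took 16.2, 12.9 and 13.9% of counts in saline 1, 2 and 3, a mean of 14.3% ± 1.69, and 32.3% ± 1.97 of summed FPKM. The nuclear copies of mitochondrial genes described below were left out of these shares and kept in the totals. In these libraries of polyadenylated RNA, nearly all of the mitochondrial counts were mRNA. The 13 protein genes held 14.0% ± 1.65 of counts and the 2 ribosomal RNAs, mt-Rnr1 and mt-Rnr2, 0.25% ± 0.05. That split describes such libraries and not the total RNA of the kidney. After mt-Co1 came mt-Cytb, cytochrome b of complex III, at 14792 ± 1839 FPKM, mt-Atp6 at 13590 ± 2465, mt-Co2 at 13228 ± 1690, mt-Atp8 at 12821 ± 1029 and mt-Co3 at 12575 ± 1756. The complex I genes were lower, from mt-Nd1 at 10560 ± 1612 and mt-Nd4 and mt-Nd2 at 7793 ± 1307 and 7791 ± 949, through mt-Nd6 at 4715 ± 720, mt-Nd4l at 4140 ± 312 and mt-Nd5 at 4001 ± 350, to mt-Nd3 at 2993 ± 945 FPKM. Saline 1 was the highest library for 11 of the 13, the exceptions being mt-Nd4l and mt-Nd5, which were highest in saline 3.

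Of the 25 most abundant genes of the nuclear chromosomes, 7 were pseudogenes that copy mitochondrial genes. All 7 (Gm10925, Gm28661, Gm28437, Gm29216, Gm10222, Gm28439 and Gm28438) lie at chr1:24611535-24616197 in GRCm38, on the same stretch. Aligned to GENCODE M21 transcripts of the mitochondrial genes, 6 were 100% identical over their aligned bases and Gm29216 had 482 of 483 identical. The FPKM of Gm10925, Gm28661, Gm28437, Gm10222 and Gm28438 was 105, 98.7, 99.3, 101 and 97.9% of that of mt-Atp6, mt-Co2, mt-Co3, mt-Nd4l and mt-Nd3. That of Gm28439 and Gm29216, which copy only a stretch of mt-Nd4 and mt-Co1, was 52.3 and 36.7%. Reads of an identical copy cannot be told from those of the mitochondrial gene, so that the levels of both members of each pair are uncertain. The mitochondrial share of counts, and the order of genes with a copy against genes without, are uncertain for the same reason. Pseudogenes of all kinds took 5.18% ± 0.69 of saline counts. The 5′ end of the copy of mt-Co1 is shown because it holds the one aligned base that separates the nuclear from the mitochondrial gene. The first 9 bases of the copy lie outside the alignment. The single mismatch in the alignment, A1066T, is in capitals and is counted from 1 at the 5′ end of mt-Co1. The mitochondrial bases lie at chrM:6381-6423 (plus strand) and those of the copy at chr1:24616155-24616197 (minus strand).
mt-Co1: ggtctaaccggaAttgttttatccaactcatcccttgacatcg
Gm29216: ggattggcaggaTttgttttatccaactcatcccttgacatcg

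**Figure D2:**
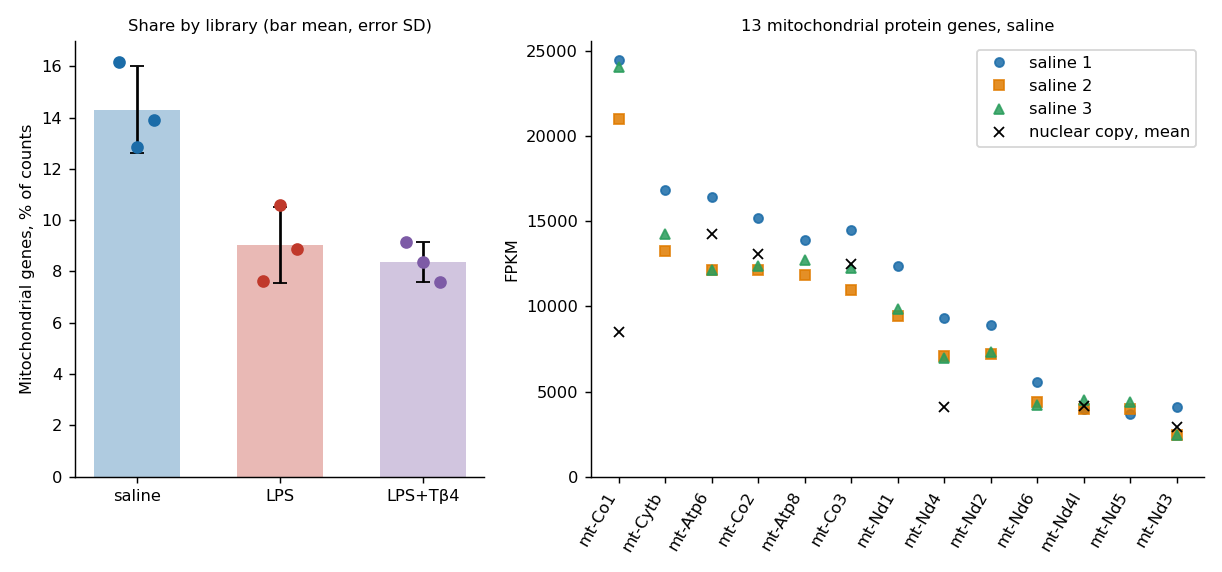
Left, share of counts in genes on the mitochondrial chromosome for each library (points), with the group mean (bar, from 0) and SD (error bar, n = 3); the saline mean is 14.3%. Right, FPKM of the 13 mitochondrial protein genes in the 3 saline libraries, with the mean of the nuclear copy (cross) for the 7 genes that have one.

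Outside these copies, the nuclear transcriptome was led by Kap, the kidney androgen-regulated protein of the proximal tubule. Kap (chr6:133849851-133853762, minus strand) had 17971, 20614 and 16536 FPKM, second only to mt-Co1, and took 1.46% ± 0.15 of all counts. Gpx3, the plasma glutathione peroxidase that proximal tubule cells secrete, had 9863, 6907 and 9741 FPKM and took 1.80% ± 0.36 of counts, more than Kap since counts also grow with transcript length. No other nuclear protein-coding gene came within 5-fold of Gpx3. The gene annotated as ribosomal RNA CT010467 had 7446, 1782 and 11762 FPKM, a 6.60-fold spread in libraries made from polyadenylated RNA.

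The other 15 of the 25 included metabolic enzymes, iron and selenium proteins, and proteins of tubular transport. Ass1, argininosuccinate synthase, by which the kidney makes arginine, had 769 ± 124 FPKM, Miox, which opens the inositol ring, 880 ± 115, Akr1c21, a hydroxysteroid dehydrogenase, 693 ± 79.2 and Cyp4b1, a monooxygenase, 685 ± 77.4. Ferritin light chain Ftl1 had 1561 ± 233 and heavy chain Fth1 678 ± 116 FPKM. Selenium metabolism was represented beside Gpx3 by Gpx1, the cytosolic glutathione peroxidase, at 823 ± 153 and by Selenop, the selenium carrier protein, at 730 ± 64.1 FPKM. Transport was represented by Slc34a1, by Cltrn, the collectrin that brings amino acid transporters to the brush border, at 890 ± 149, and by Atp1b1, the beta subunit of the sodium pump, at 632 ± 40.0 FPKM. Klk1, tissue kallikrein of the connecting tubule, had 1035 ± 217 and S100g, the calcium-binding calbindin-D9k, 666 ± 220 FPKM. Eef1a1, the translation elongation factor, had 1504 ± 101. The RNA of this tissue was concentrated in few genes. The 20 with most counts, mitochondrial genes and their nuclear copies among them, took 26.0, 20.04 and 23.9% of counts, a mean of 23.3% ± 3.02. When the mitochondrial chromosome was left out and its nuclear copies were kept, the top 20 held 14.6% of nuclear counts. In saline 466 ± 108 genes held 50% of counts, against means of 650 in the LPS and 711 in the LPS+Tβ4 libraries.

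**Figure D3:**
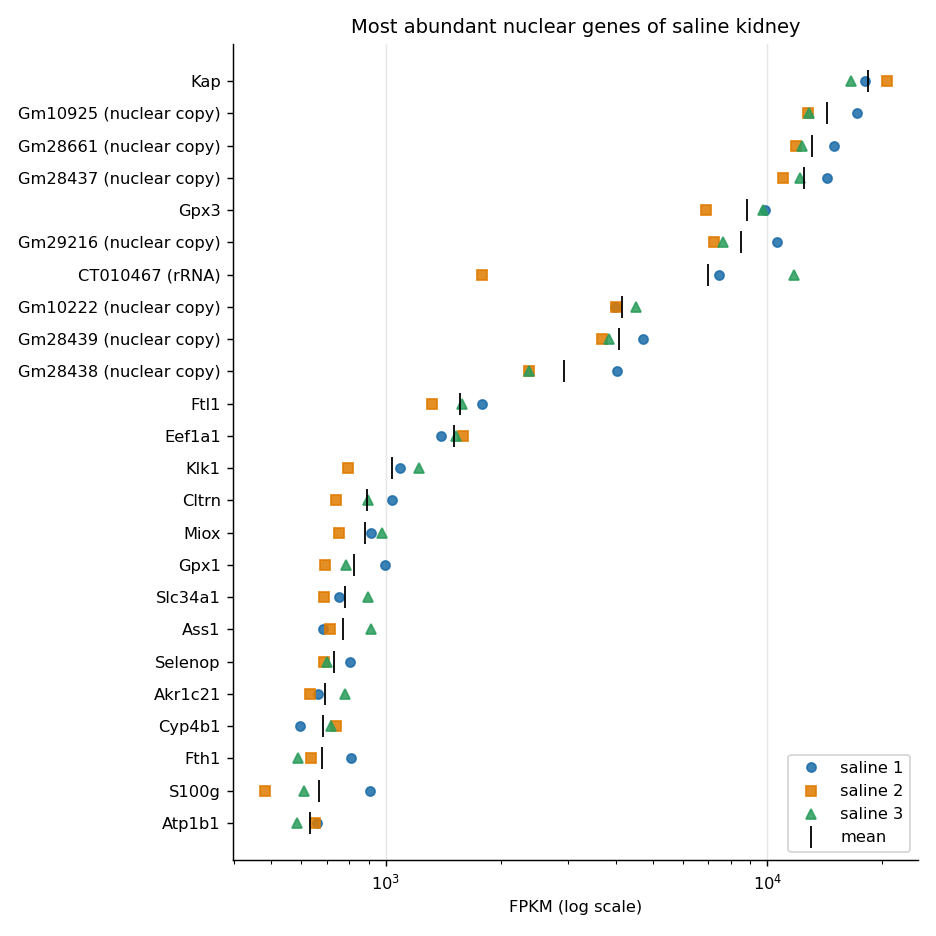
FPKM (log axis) of genes among the 25 most abundant of the nuclear chromosomes in saline 1 (circle), saline 2 (square) and saline 3 (triangle), with the mean as a bar. Kap leads at 16536 to 20614, 7 entries are copies of mitochondrial genes, and CT010467 spans 1782 to 11762.

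Promoter sequences of the most abundant nuclear protein-coding genes were taken from RefSeq (GRCm38.p6, 250 bases before to 50 after each start), which held 23 of 25. The motif TATAAA, starting 40 to 20 bases before the start site on the gene's strand, was present in 4 of the 23 (17.4%), namely Kap, Miox, Acsm2 and Acy3, against 2.41% of 27025 genes with a promoter. A match describes letters only. The 120 bases before the RefSeq start are shown for Kap, the leading gene, and for the marker Slc12a3, with the motif in capitals. They lie at chr6:133853668-133853787 (minus strand) for Kap and chr8:94329088-94329207 (plus strand) for Slc12a3. TATAAA began 31 bases before the start in Kap and 32 in Slc12a3. The motif was not found in these 120 bases of Umod, Aqp2 or Lrp2.
Kap: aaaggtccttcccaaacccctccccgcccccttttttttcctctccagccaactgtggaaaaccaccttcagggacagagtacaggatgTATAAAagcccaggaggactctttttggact
Slc12a3: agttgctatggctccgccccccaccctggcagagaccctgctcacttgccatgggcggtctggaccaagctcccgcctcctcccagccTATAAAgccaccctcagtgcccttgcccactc

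Markers were then followed along the nephron, beginning at the filter. Of 10 podocyte genes, 9 had an FPKM of at least 1 in all 3 saline libraries. Podxl, the charged podocalyxin of the foot processes, had 40.8, 35.2 and 33.7 FPKM, highest in saline 1. Cdkn1c, a cell-cycle inhibitor, had 6.33 ± 1.78, Synpo, the actin-bundling synaptopodin, 5.91 ± 0.72 and Nphs1, nephrin, 4.18 ± 0.94 FPKM. These 3 were highest in saline 1 too. Nphs1 overlaps a ribosomal protein pseudogene of 24.0 FPKM on the opposite strand. The libraries keep strand, and no label says whether the counting used it.

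The proximal tubule list had the highest summed FPKM of the segment lists (4311, 4209 and 4970), though sums grow with the number of genes listed. By the median level of its members, the connecting tubule list of 4 genes stood higher, at 396 against 241 FPKM. All 13 proximal tubule genes measured were above an FPKM of 1 (Cub was not analysed here). After Miox, Slc34a1 and Ass1, the leading members were Slc27a2, a fatty acid transporter and very-long-chain acyl-CoA synthetase, at 510, 694 and 550 FPKM, and Fbp1, the gluconeogenic fructose bisphosphatase, at 341, 353 and 443. Genes of the early segments S1 and S2 were ordered Slc22a6, the organic anion transporter OAT1, at 160 ± 10.7, Slc5a2, the glucose cotransporter SGLT2, at 130 ± 21.1, Slc22a8, OAT3, at 75.2 ± 12.1, Slc6a19, the main neutral amino acid transporter, at 66.4 ± 14.9 and Slc5a12, a lactate transporter, at 65.8 ± 13.3 FPKM. The ranges of the last 3 overlapped; within each library Slc22a8 stood above the other two, while Slc6a19 and Slc5a12 had no fixed order. All but Slc22a6 were lowest in saline 2, and all 5 were highest in saline 3. Several genes of the late segment S3 were instead highest in saline 2: Slc7a13, its aspartate and glutamate carrier, had 163, 291 and 192 FPKM, Slc22a7, OAT2, 43.5, 86.0 and 40.3, and Cyp7b1, an oxysterol hydroxylase, 29.9, 79.5 and 16.2. Slc5a8, a monocarboxylate transporter, had 47.8 ± 8.45 FPKM and was highest in saline 2 as well, whereas Slc5a1, SGLT1, had 13.8, 13.2 and 10.8 FPKM. The summed FPKM of the S3 genes was 299, 527 and 300, and that of the S1 and S2 genes 551, 494 and 647.

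Summed levels of the loop of Henle lists were also highest in saline 2, though not every member was. The 10 thick ascending limb genes summed to 860, 1327 and 878 FPKM, and all 10 were above an FPKM of 1. Beside Umod, Slc12a1, the furosemide-sensitive cotransporter, had 85.6, 159 and 72.0 FPKM, Egf, the precursor of epidermal growth factor, 75.3, 111 and 88.0, Cldn10, a cation-selective claudin, 68.7 ± 6.48. Kcnj1, the apical potassium channel ROMK, had 65.9, 59.4 and 56.3 FPKM and was highest in saline 1. The thin limb genes spread most of all segments, summing to 8.95, 48.7 and 16.3 FPKM. Slc14a2, the vasopressin-regulated urea transporter of the medulla, had 0.43, 20.5 and 7.94 FPKM. It was low in saline 1 as well as high in saline 2.

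Distal convoluted tubule genes differed less between the mice, summing to 628, 536 and 573 FPKM. Fxyd2, the gamma subunit of the sodium pump, had 403 ± 32.4 FPKM and stood above Slc12a3. With a mean of 579 FPKM, the sum of the list rested mostly on Fxyd2. Over the 10 genes of the list the median coefficient of variation was 11.6%. The kinases Wnk4 and Wnk1, which regulate Slc12a3, had 28.2 ± 2.52 and 22.05 ± 1.11, and Slc8a1, the basolateral sodium-calcium exchanger, 15.2 ± 2.60 FPKM. In the connecting tubule, Klk1 and S100g were followed by Calb1, calbindin-D28k, at 185, 91.6 and 102 FPKM and by Trpv5, the apical calcium channel, at 6.55 ± 1.68. S100g and Calb1 were highest in saline 1 and lowest in saline 2.

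In the collecting duct, the 2 cell types differed in spread. Principal cell genes summed to 178, 344 and 187 FPKM. Saline 2 was highest for the water channels Aqp2 and Aqp3 (25.02, 47.7 and 32.8 FPKM) and for Fxyd4, the pump regulator CHIF (5.68, 26.9 and 7.05). By contrast, Hsd11b2, which protects the mineralocorticoid receptor from glucocorticoid, had 59.4, 41.9 and 43.9 FPKM, and Scnn1a, the alpha subunit of the epithelial sodium channel, 22.9, 19.7 and 19.7, each highest in saline 1. Intercalated cell genes summed to 180, 166 and 183 FPKM. Rhcg and Rhbg, the ammonia channels, had 33.9 ± 2.56 and 18.2 ± 3.48, Atp6v1g3 and Atp6v1b1, subunits of the proton pump, 25.3 ± 3.43 and 17.4 ± 2.32, and Slc26a4, the chloride-bicarbonate exchanger pendrin, 23.8 ± 2.17 FPKM.

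**Figure D4:**
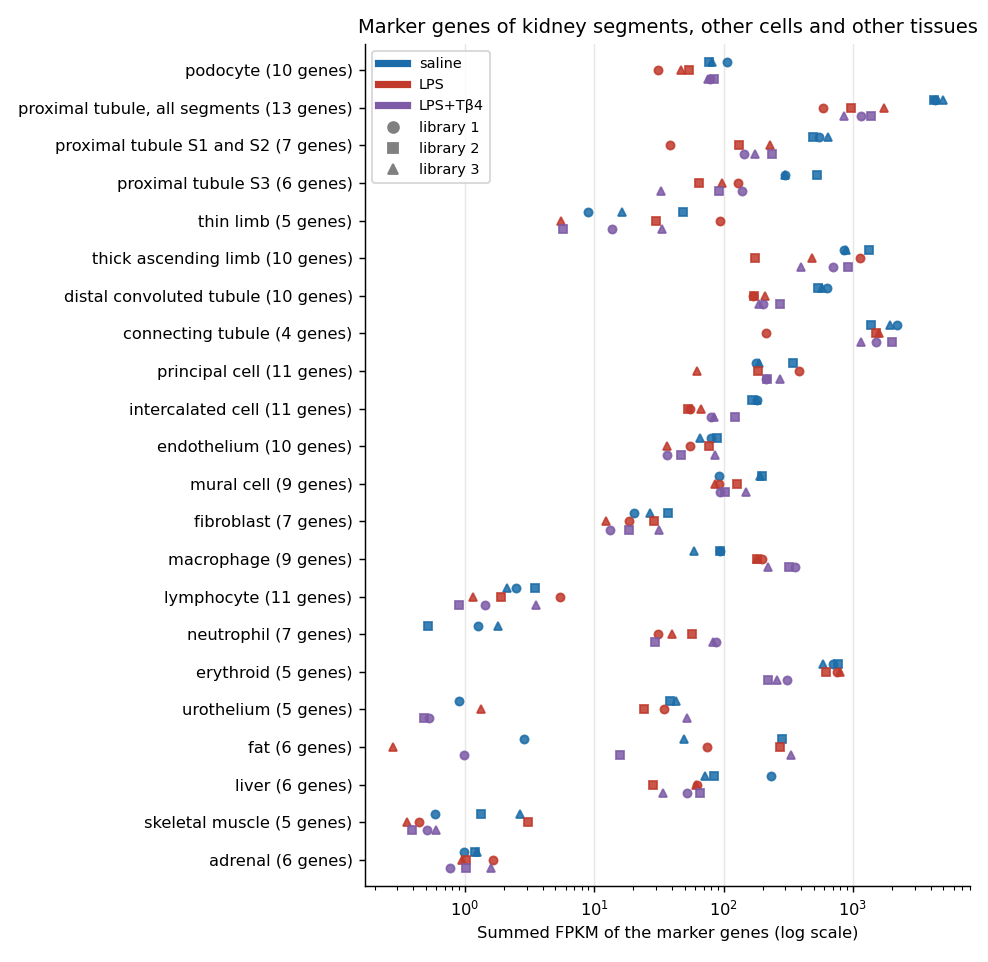
Summed FPKM (log axis) of the marker genes of each segment, cell type or other tissue in the 9 libraries, coloured by group, with the symbol giving the library number. Saline points for the intercalated cell lie together at 166 to 183, while those for urothelium span 0.90 to 42.8 and those for fat 2.87 to 281.

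Markers of vessels, interstitium and blood followed. Endothelial genes were led by Plvap, of fenestrated capillaries, at 17.6 ± 4.47 FPKM, Eng, endoglin, at 14.4 ± 2.25 and Emcn, endomucin, at 10.1 ± 1.48. Ren1, renin of the juxtaglomerular cells, had 25.3, 19.7 and 21.8 FPKM and did not share the spread of the smooth muscle genes. Of the fibroblast genes, Col1a1 had 7.10 ± 2.87, Col3a1 5.86 ± 2.58 and Dcn, decorin, 5.66 ± 1.98 FPKM. Red cell RNA was present in every kidney, with Hbb-bs at 263 ± 21.7 and Hba-a1 at 165 ± 36.1 FPKM; the paralogs Hba-a1 and Hba-a2 share reads, so each level is uncertain. Among macrophage genes, Cd74, the invariant chain that other antigen-presenting cells make too, had 65.1, 61.8 and 41.4 FPKM, and C1qb, Csf1r and C1qa 7.30 ± 2.104, 6.53 ± 2.67 and 6.45 ± 1.83. Of 11 lymphocyte genes, none had an FPKM of 1 in all 3 libraries, and the member with the highest mean, Cd79b of B cells, had 0.23, 1.52 and 0.45 FPKM. The neutrophil genes Ly6g and Mpo drew no count from any of the 3, and S100a9, the highest of 7, had 0.70, 0.17 and 1.20 FPKM.

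Solute carriers (Slc and Slco genes) made up 2.64% of nuclear FPKM, a total that kept the nuclear copies of mitochondrial genes and CT010467. Of 373 solute carriers, 239 had an FPKM of at least 1 in all 3 saline libraries. Their summed level differed little between mice, at 7318, 8006 and 7939 FPKM. The family with the highest sum was Slc22, the organic ion transporters, at 1471 ± 59.8 FPKM, of which Slc22a12, the urate exchanger URAT1, made up 32.6% with 462, 463 and 513 FPKM. Lower members were Slc22a18 at 117 ± 11.3 and Slc22a28 at 109 ± 1.55. The mitochondrial carriers of Slc25 followed at 1280 ± 26.7, led by Slc25a5, the adenine nucleotide translocase ANT2, at 433 ± 25.01 FPKM. Slc34 (800 ± 110) and Slc27 (603 ± 98.2) each rested on 1 gene, with 97.4% from Slc34a1 and 96.9% from Slc27a2. The 6 families after these were Slc7, Slc5, Slc6, Slc17, Slc16 and Slc12, at 328 ± 59.0, 326 ± 18.1, 298 ± 22.6, 272 ± 16.0, 219 ± 2.12 and 214 ± 42.4 FPKM. The ranges of neighbours in that order overlapped, except those of Slc17 and Slc16. Slc47a1, which exports cations at the brush border, had 159, 155 and 158 FPKM.

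**Figure D5:**
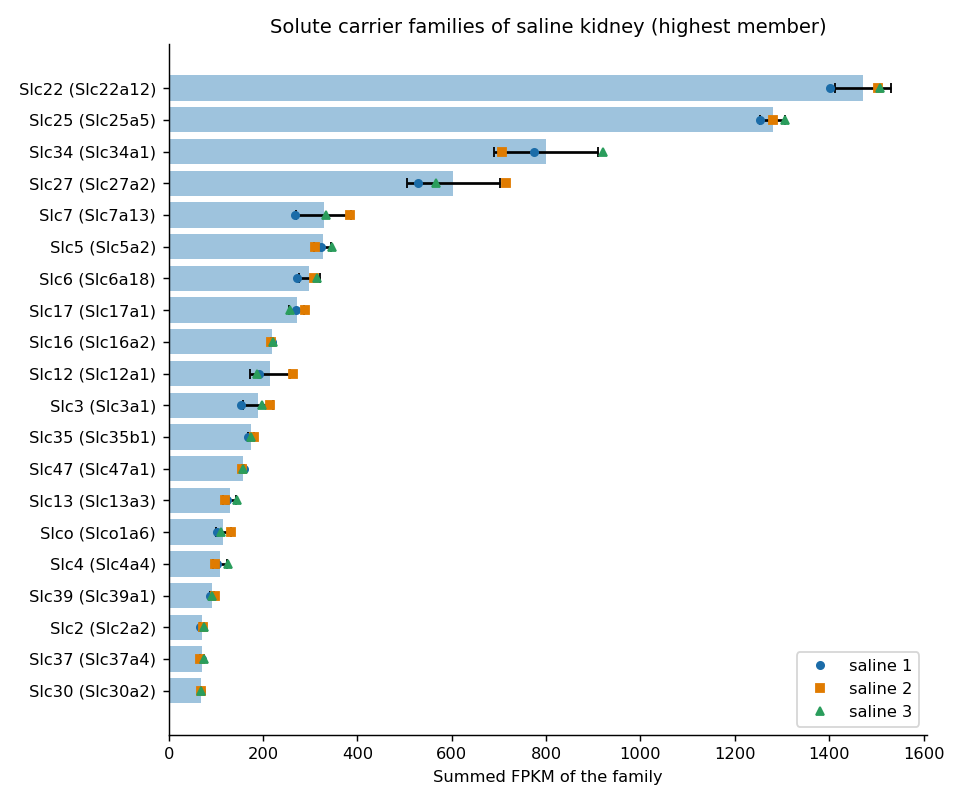
Summed FPKM of the 20 solute carrier families with the highest sums over the 3 saline libraries (bars, mean from 0; error bars, SD, n = 3; points, libraries), each with its highest member in brackets. Slc22 leads at 1471 and Slc25 follows at 1280.

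Among the channels and pumps, Aqp1, the constitutive water channel of the proximal tubule and thin descending limb, had 184, 294 and 212 FPKM and stood above Aqp2, Aqp3, Aqp4 (1.20, 29.1 and 7.83) and Aqp6 (12.3 ± 2.97). The ranges of Aqp2, Aqp3 and Aqp4 overlapped between mice, but within each of the 3 libraries Aqp2 stood above Aqp3 and Aqp3 above Aqp4. Of the beta subunits of the sodium pump, Atp1b1 had 632 ± 40.0 and Atp1b3 34.3 ± 4.53 FPKM. Kcnj15 and Kcnj16, subunits of inward rectifier potassium channels, had 142 ± 4.38 and 129 ± 6.02 FPKM, above Kcnj1. Claudins of the tight junction were led by Cldn2, which forms the sodium and water pore of the proximal tubule, at 140 ± 12.1, followed by Cldn10, Cldn8 of the collecting duct (43.5 ± 10.6), Cldn12 (18.3 ± 2.43) and Cldn4 (11.9 ± 5.92). Of apical sodium entry, Slc9a3, the sodium-proton exchanger NHE3, had 21.5, 21.4 and 20.4 FPKM.

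Amino acid transport was led, after Cltrn and Slc7a13, by Slc3a1, the cystine transporter subunit, at 159 ± 33.8, and by Slc6a18 at 89.5 ± 14.6. Slc2a2, the basolateral glucose carrier GLUT2, had 30.5 ± 3.79 and the fructose carrier Slc2a5 13.9 ± 2.15 FPKM. In gluconeogenesis, Pck1, its committed enzyme, had 388, 474 and 415 FPKM and G6pc, which releases glucose, 130, 201 and 193, beside Fbp1. Of ammonia and acid handling, Car2, cytosolic carbonic anhydrase, had 152 ± 36.3, Glul, glutamine synthetase, 116 ± 10.6, Glud1, glutamate dehydrogenase, 90.9 ± 6.25 and Slc4a4, the basolateral bicarbonate exit, 76.1 ± 11.4 FPKM. Among fatty acid oxidation genes, Acadm, the medium-chain dehydrogenase, had 212 ± 48.5 and Ehhadh, a peroxisomal enzyme, 190 ± 18.1 FPKM. Of 30 nuclear genes of oxidative phosphorylation, all were above an FPKM of 1, and their sum, 4299, 4036 and 4004 FPKM, was within 1.07-fold. The ATP synthase subunits Atp5a1 and Atp5b had 458 ± 16.0 and 431 ± 9.65 and Cox4i1 of cytochrome oxidase 319 ± 10.4, far below the mitochondrial members of the same complexes on this scale.

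The kidney also makes or receives hormones. Pth1r, the parathyroid hormone receptor, had 109 ± 16.3, Kl, the FGF23 coreceptor Klotho, 89.4 ± 12.03, Vdr, the vitamin D receptor, 41.0 ± 1.22 and Cyp24a1, which degrades vitamin D, 22.9 ± 3.57 FPKM, against 1.49 ± 0.35 for Cyp27b1, which activates it. Cyp27b1, the sixth member, falls outside the 5 highest and was chosen after its value was seen. Brush-border peptidases were led by Mep1a, a meprin, at 284, 416 and 284 FPKM, and Ggt1, gamma-glutamyltransferase, at 197 ± 26.2. Vegfa had 41.9 ± 1.91 FPKM. High transcription factors of the list included Hnf4a, which sets proximal tubule identity, at 136 ± 6.29, Tfcp2l1 of the collecting duct at 31.6 ± 3.04, Maf at 24.6 ± 4.20 and Esrra at 17.2 ± 2.01. Of 36 Hox genes, 19 were above an FPKM of 1 in all 3 saline libraries, led by Hoxd8 at 27.5 ± 5.59.

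Of 13 genes known for tubular injury, 8 had an FPKM of at least 1 in all 3 saline libraries. Spp1, the secreted phosphoprotein osteopontin, had 480, 473 and 456 FPKM and ranked 56 among all genes by its mean. Clu, clusterin, had 57.6 ± 10.2, Krt8, a simple-epithelial keratin, 29.9 ± 7.91, Krt18, its partner, 5.30, 28.8 and 18.6, and Lcn2, lipocalin-2, 11.5 ± 1.43 FPKM. Krt18, also a urothelial keratin, was lowest in saline 1 and highest in saline 2, whereas the urothelial sum was 0.90, 38.5 and 42.8 FPKM. The part of urothelial RNA in the spread of Krt18 was not tested. Of 14 cytokine genes, Cxcl10 at 1.89 ± 0.75 was the only one above an FPKM of 1 in all 3, and Ccl20, Ifnb1 and Il10 had no count. Ier3 led the immediate-early genes at 18.2, 18.2 and 17.9 FPKM, and Dusp1 and Zfp36 had 12.2 ± 2.49 and 10.3 ± 1.39.

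The saline kidney was last set beside the treated groups, which share the same 3 saline libraries as their control. In edgeR's quasi-likelihood test with Benjamini-Hochberg adjustment over 15015 genes, 3329 genes (22.2%) were higher and 3144 (20.9%) lower in saline than in LPS kidney, 43.1% in all. Against LPS+Tβ4 kidney, 1765 (11.8%) were higher and 1852 (12.3%) lower, 24.1% in all. With limma that split was 1327 to 2465 on log2(FPKM + 1) and 1204 to 2560 on log2(FPKM + 0.1). The second total was 2119 without LPS+Tβ4 1, and 2269, 2386 and 2183 without saline 1, 2 and 3. FPKM ranges did not overlap for 51.9 and 51.1% of tested genes. Proximal tubule genes were higher in saline for 12 of 13 against LPS and 9 of 13 against LPS+Tβ4, with median log2 differences of 2.38 and 2.83, where all tested genes had medians of -0.02 and 0.00. The first count was 7 without saline 3 or without LPS 2. The separate lists of the early and late segments gave lower counts, 4 of 7 S1 and S2 genes and 2 of 5 tested S3 genes in each comparison. In a bulk library, fewer cells of a type and less RNA per cell cannot be told apart. Lrp2, at 94.7 to 121 FPKM in saline, had 7.97 to 14.7 FPKM in LPS kidney, a log2 difference of 3.43 ± 0.36 (SE; edgeR adjusted p = 0.00026). Its groups did not overlap. Slc34a1 was 2.61 ± 0.73 higher in saline (edgeR adjusted p = 0.020), with 24.9 to 257 FPKM in LPS kidney, and lost its call at a similar difference without saline 3 (2.45, edgeR adjusted p = 0.054), without LPS 2 (2.48, 0.069) and with only the 6 libraries compared (2.56, 0.051).

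Other segments followed at lower counts. Of all tested genes, 22.2% were higher in saline than in LPS and 11.8% higher than in LPS+Tβ4. Distal convoluted tubule genes were higher in saline for 8 of 10 against LPS and 6 of 10 against LPS+Tβ4, intercalated cell genes for 8 and 7 of 11, and thick ascending limb genes for 8 and 4 of 10 (the last 2 without LPS+Tβ4 1). Of 10 podocyte genes 5 and of 11 principal cell genes 4 were higher than in LPS. Each list had 1 gene higher than in LPS+Tβ4, near the share of all tested genes. Without saline 1 these counts were 3, 2, 0 and 0. The principal cell count against LPS was also 2 without saline 2, saline 3, LPS 2 or any LPS+Tβ4 library, and the podocyte count against LPS+Tβ4 was 0 without saline 3 or LPS+Tβ4 1 or 2. The principal cell count against LPS+Tβ4 was 0 without saline 2, saline 3, LPS 2, LPS+Tβ4 1 or LPS+Tβ4 3, and 2 without LPS 3. Slc12a3 was 2.46 ± 0.60 higher in saline than in LPS (edgeR adjusted p = 0.011) and, with overlapping ranges, 0.92 ± 0.57 higher than in LPS+Tβ4 (0.28). Egf was 4.59 ± 0.54 higher than in LPS (edgeR adjusted p = 0.0004), as were Gatm, which makes the creatine precursor, by 5.99 ± 0.52 (0.00012) and Keg1, a glycine acyltransferase of the kidney, by 5.61 ± 0.36 (4.3e-05); Gatm and Keg1 were chosen after their values were seen. Not every leading kidney gene differed past the threshold. Kap differed by 0.69 ± 0.54 (edgeR adjusted p = 0.34) from LPS and 1.05 ± 0.55 (0.20) from LPS+Tβ4, Umod by 0.40 ± 0.62 (0.63) and 0.27 ± 0.62 (0.79), and Aqp2 by 0.21 ± 0.81 (0.85) and -0.26 ± 0.81 (0.85). Umod had 132 to 1049 and Aqp2 8.73 to 142 FPKM in LPS kidney, a range that took in all 3 saline values of each, and the sign of both differences turned when single libraries were left out.

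Mitochondrial genes took 7.64 to 10.6% of counts in LPS and 7.59 to 9.14% in LPS+Tβ4 kidney, below the lowest saline library at 12.9%. Of the 13 protein genes, 9 were higher in saline than in LPS and 10 than in LPS+Tβ4, where all tested genes gave 22.2 and 11.8%. Other mitochondrial genes did not all go that way. The ribosomal RNA mt-Rnr1 was lower in saline than in LPS, by a log2 difference of -1.82 ± 0.58 (edgeR adjusted p = 0.033), and differed from LPS+Tβ4 by -0.97 (0.25). Of the transfer RNA genes, mt-Tn, mt-Ta and mt-Tf were lower than in LPS, at -1.69, -1.65 and -2.10 (edgeR adjusted p = 0.0095, 0.0092 and 0.0071). The value of mt-Tf rested on only 14, 16 and 10 counts in saline 1, 2 and 3. mt-Tm and mt-Tq were higher than in LPS, at 2.48 and 2.42 (edgeR adjusted p = 0.0004 and 0.00042). mt-Rnr1 and these transfer RNA genes were chosen after their values were seen. The libraries were made from polyadenylated RNA, so their counts need not follow the level of mature ribosomal or transfer RNA. The counts of protein genes rested on few libraries: without saline 1 they were 5 and 2, and without saline 3, 5 and 4. They were also 5 without LPS 1 for the first, and 4, 4 and 2 without LPS+Tβ4 1, 2 and 3 for the second. mt-Co1 differed by 0.61 ± 0.39 (edgeR adjusted p = 0.24) and 0.73 ± 0.39 (0.21), and passed with DESeq2 (0.012 and 0.0028). Nuclear oxidative phosphorylation genes were higher in saline for 19 of 30 and 13 of 30, the latter 8 without saline 1 or LPS+Tβ4 1, 7 without saline 3 or LPS+Tβ4 3 and 21 without LPS 1. Lower in saline were 20.9% of all tested genes against LPS and 12.3% against LPS+Tβ4. Injury genes stood lower in saline for 10 of 13 in both comparisons and cytokine genes for 9 and 10 of 10 tested. Immediate-early genes did so for 9 and 8 of 10 tested (the second 5, 4 and 5 without saline 1, 2 and 3). Spp1 was lower in saline than in LPS by 3.72 ± 0.40 on the log2 scale (edgeR adjusted p = 0.00028), with 4673 to 9461 FPKM in LPS kidney.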

How the data were processed

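Poly(A) RNA of 9 mouse kidneys, 3 per group, was sequenced with strand-specific libraries, per the labels. The deposited table gives each gene's raw read count and its FPKM as the authors made them. The submitters' processing notes name cutadapt 1.9, HISAT2 2.2.1, StringTie 2.1.6, DESeq2, edgeR and the build GRCm38. For the counting program, annotation release and strand setting: not given in the sources used here.

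Levels, shares and spreads were computed from the deposited FPKM and counts. Saline was compared with each other group by edgeR 4.0.16 (R 4.3.3): a quasi-likelihood fit of all 9 libraries on raw counts, TMM scaling, no covariate, a mean FPKM of at least 0.5 (15015 genes) and Benjamini-Hochberg adjustment with a threshold of 0.05. Each replicate is 1 mouse. Alternatives were DESeq2 1.42.0, limma 3.58.1, other filters and scalings, a replicate block and leaving out each library. The fit was tested on simulated data made from 15015 genes. Of 50 genes changed 4-fold it recovered 58% for saline against LPS and 62% for saline against LPS+Tβ4.

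Named with values were the 25 nuclear genes and 13 mitochondrial protein genes highest in saline, and 5 markers. Also named were up to 5 highest members of each list or family and any member without counts. The 12 genes of widest saline spread were named too, with predicted genes, clone names and pseudogenes left out. Members and lists were chosen with earlier results of these data known. Promoters came from RefSeq and transcripts of mitochondrial copies from GENCODE M21. A count of 0 allows up to 3 counts, which is 0.0171 CPM over the saline group, for counting error only. Some genes that the rule would name are not reported here.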

Additional observations from a re-analysis of the deposited data

How the results depend on the processing

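With a mean FPKM of at least 5, fewer genes were tested and the calls numbered 3754 against LPS and 2268 against LPS+Tβ4. Leaving out 1 library at a time gave 4884 to 6903 calls against LPS and 2119 to 4544 against LPS+Tβ4. As a share of summed FPKM, mitochondrial genes held 32.3% and the 20 most abundant genes 49.9%, and the 20 most abundant nuclear genes held 14.6% of nuclear counts. At an FPKM of 5, 5735 genes were detected. Over the left-out saline libraries the mitochondrial share was 13.4 to 15.0%, the share of the 20 genes 21.96 to 24.9%, the detected genes 11592 to 12025 and the median coefficient of variation 8.49 to 12.8%. The log2 difference of Umod was -0.10 to 1.09 against LPS (lowest without LPS 2) and -0.088 to 0.57 against LPS+Tβ4 (lowest without LPS+Tβ4 3). That of Aqp2 was -0.69 to 1.08 against LPS (lowest without saline 2, and -0.30 without LPS 3) and -1.16 to 0.023 against LPS+Tβ4 (highest without saline 1). The cause was not tested. Of 396 values for single genes under alternatives, 384 kept direction and side of the threshold. Of 396 list counts, 338 stayed within 1.5 times.

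Deviations from the group mean were correlated from -0.66 to 0.32 between same-numbered libraries and from -0.48 to 0.51 between differently numbered ones. With 3 libraries per group, these values cannot tell whether the replicate numbers in the labels pair the samples. With the replicate block, 5284 genes were called against LPS and 2474 against LPS+Tβ4. In the simulated data 50 genes were changed at each fold, far fewer in all than were called in the libraries themselves. Of those changed 1.5-fold, 2% were recovered for saline against LPS and 0% for saline against LPS+Tβ4. The adjustment depends on how many genes differ, so these shares cannot tell which differences were detectable in the libraries.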
